A study of Homo sapiens with 28 samples.

Results

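SOX1 knockout and wild type cultures of the human embryonic stem cell line H9 were compared under the label IWP2. The comparison used 8 of the 28 libraries of the series. They comprise 2 wild type libraries (WT 1 and WT 2) and 2 SOX1-/- libraries (KO 26 and KO 48) on day 4, and libraries of the same 4 names on day 8. Members were chosen by their labels alone, and KO was set against WT within each day. The other 20 libraries hold undifferentiated cells and cultures under the labels CT0.4 and CT1.0, which the labels do not spell out. The SOX1 lesion is not described in the labels, and neither is whether WT 1 and WT 2, or KO 26 and KO 48, are separate clones or separate cultures. The p-values below therefore measure only the spread between libraries of the same group, which may be technical. For tests within a day, that spread was pooled over the 14 groups of all 28 libraries and not taken from the compared libraries alone. All 4 names share the H9 background, so the comparison concerns 1 parental line.

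IWP2 inhibits Porcupine, the enzyme that attaches a lipid to WNT proteins so that they can leave the cell. Neural cells that form with little WNT signalling take on the most anterior fates, the forebrain and the eye field. RAX, SIX3, LHX2 and PAX6 encode transcription factors of the eye field, and FEZF1, OTX2 and HESX1 mark anterior neural tissue more broadly. SOX1, SOX2 and SOX3 form the SOXB1 group of factors, which overlap in function in neural progenitors. The series asks which regional identity neural progenitors take when SOX1 is absent, and the IWP2 arm puts that question to cells held at the anterior end.

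Expression was deposited as TPM, a relative transcript level corrected for transcript length and scaled to a fixed total in each library. TPM keeps no depth, so the counting precision behind a value is unknown. In bulk RNA, fewer cells of a type and less RNA per cell cannot be told apart. Of 58219 genes in the file, 22770 reached 1 TPM in at least 2 of the 8 libraries and were tested. All log2 values below are differences of log2(TPM + 1), KO minus WT, which understate changes of low genes. A difference was called when the adjusted p of limma, over all genes tested, was under 0.05. The 8 libraries were alike in composition, with 19235 to 20023 genes at 1 TPM or more, 6.77% to 8.5% of TPM from mitochondrial genes and 16.3% to 21.0% from ribosomal protein genes. Unless another order is stated, 4 values in a row are WT 1, WT 2, KO 26 and KO 48.

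SOX1 itself was the first check of the labels. On day 4 it was low in both genotypes, at 0.907, 0.99, 0.41 and 1.14 TPM. On day 8 it stood at 10.6 and 9.90 TPM in WT and at 1.96 and 2.77 TPM in KO. The day 8 groups did not overlap, and the KO minus WT difference was -1.75 (SE 0.36, 95% interval -2.52 to -0.98, limma adjusted p = 0.12, n = 2 against 2). The difference did not pass the threshold over all genes, and both KO libraries kept a low SOX1 signal. In the CT1.0 cultures of the same day SOX1 was far more abundant in WT, at 72.1 and 79.4 TPM, against 1.14 and 2.77 TPM in KO. The KO deficit in SOX1 was smaller under IWP2 than under CT1.0 by 3.00 log2 units (interval 1.92 to 4.09, limma interaction adjusted p = 0.00637). Under IWP2, then, wild type cells carried little SOX1 mRNA on day 4 and less on day 8 than under CT1.0.

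**Figure D1:**
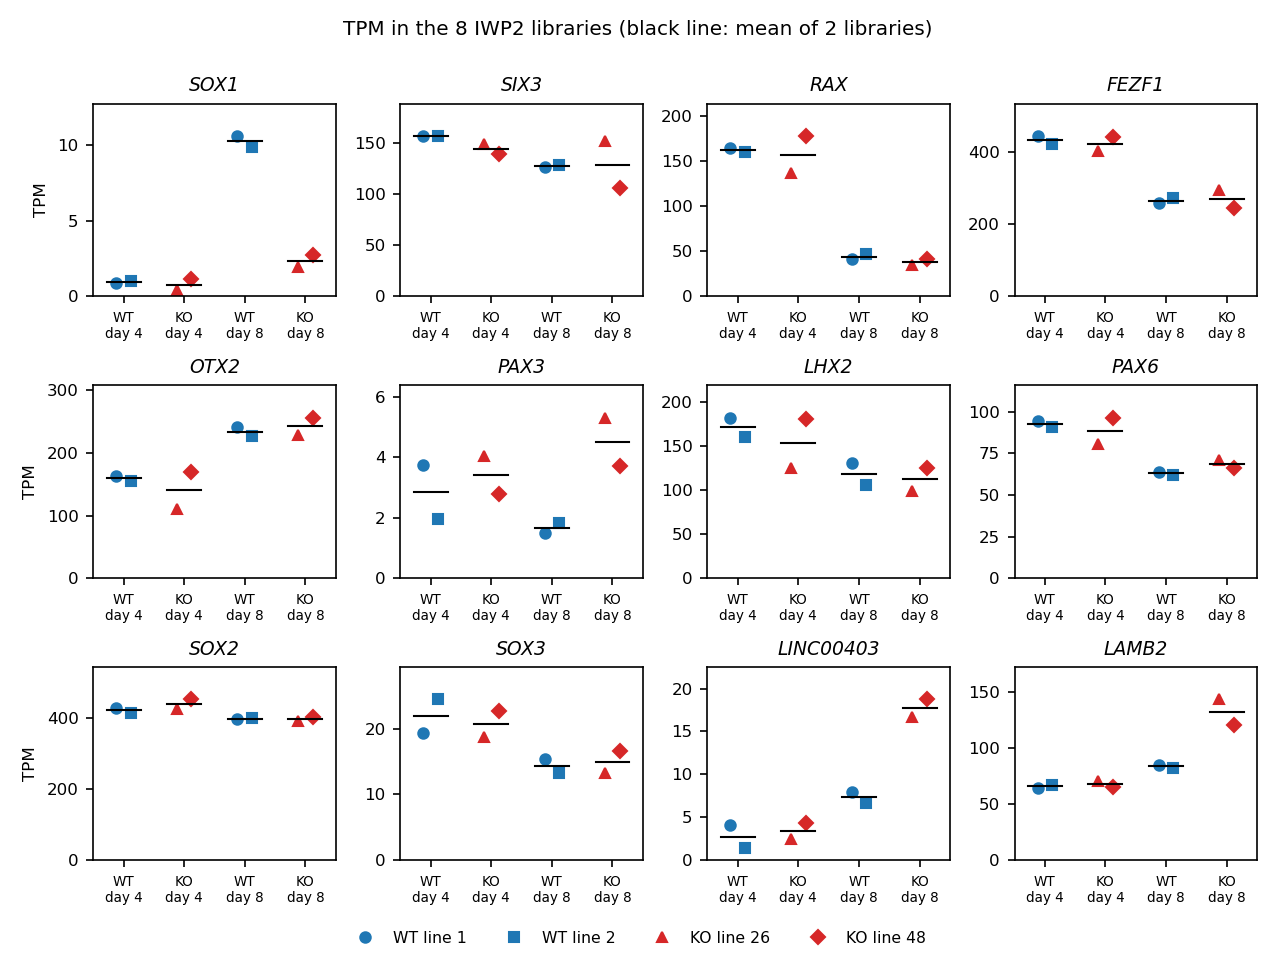
TPM of 12 genes in each of the 8 IWP2 libraries, by genotype and day; each point is 1 library and each black line the mean of 2. SOX1 separates the genotypes on day 8 (10.6 and 9.90 TPM in WT, 1.96 and 2.77 TPM in KO), while the points for SOX2, FEZF1 and PAX6 lie close together in both genotypes.

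The eye field genes SIX3, RAX, LHX2 and PAX6 stood at similar levels in KO and WT cultures on both days. SIX3, which represses WNT genes in the developing forebrain, was at 157, 156, 148 and 139 TPM on day 4. Its day 8 levels were 126, 128, 151 and 105 TPM. Both KO libraries were slightly below WT for SIX3 on day 4, and on day 8 they lay on both sides of the WT libraries. RAX, an early eye field factor, was at 165, 159, 136 and 178 TPM on day 4 and lower in both genotypes, at 40.9, 46.9, 34.6 and 40.8 TPM, on day 8. LHX2, needed for the optic vesicle, read 182, 160, 125 and 180 TPM on day 4, and its day 8 values were 130, 106, 99 and 125 TPM. KO 26 was the lowest library on day 4 for RAX and LHX2, while KO 48 lay within or above the WT values. PAX6 levels were 94.7, 91.2, 80.9 and 96.6 TPM on day 4, then 64, 62.1, 71.1 and 66.1 TPM on day 8. The 95% interval of the KO minus WT difference ran from -0.61 to 0.36 for SIX3 on day 4 and from -0.49 to 0.48 on day 8, so a 2-fold change of SIX3 in either direction lay outside it. For RAX on day 8 it ran from -0.82 to 0.39.

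Of the 13 eye field genes listed, 8 were tested and none was called on either day, where the background over all genes tested was 0.0483% called on day 4 (0.0307% higher, 0.0176% lower) and 0.0615% on day 8 (0.0395% higher, 0.022% lower). The list's median difference was -0.10 on day 4 and 0.02 on day 8, against -0.01 and 0.00 for all genes tested. Single differences ran from -0.44 to 0.73 on day 4 and from -0.22 to 0.49 on day 8. KO and WT libraries did not overlap for 1 higher and 3 lower members on day 4, and for 1 higher and 1 lower on day 8. Over all genes tested the shares were 17.1% higher and 20.2% lower, then 16.4% and 16.1%. The list's summed level was 614, 586, 525 and 612 TPM on day 4 and lower in every name, at 372, 356, 372 and 351 TPM, on day 8. SIX6, a late eye field gene, was at 11.8, 14.8, 32.6 and 15.4 TPM on day 4, with KO 26 alone high, and at 1.12, 1.26, 2.12 and 0.763 TPM on day 8.

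No anterior forebrain gene was called between genotypes. Of 12 tested members 6 did not overlap on day 4 (4 higher and 2 lower) and 2 on day 8. Over all genes tested the shares without overlap were 37.2% on day 4 and 32.5% on day 8. FEZF1, a repressor that holds forebrain identity, was the most abundant of them among the markers, at 444, 420, 403 and 440 TPM on day 4 and at 257, 273, 294 and 245 TPM on the later day. OTX2, required for forebrain and midbrain, had day 4 levels of 163, 155, 110 and 170 TPM and day 8 levels of 241, 226, 229 and 256 TPM. HESX1, an early anterior repressor, was higher on day 4 than on day 8 in every name, from 121, 96.3, 75.6 and 84.1 TPM to 13.2, 10.2, 12.1 and 16.5 TPM. SP8, which patterns the rostral forebrain, was at 31.6 and 31.4 TPM in WT and 48.2 and 52.5 TPM in KO on day 4, without overlap (log2 difference 0.66, limma adjusted p = 0.325). By day 8 SP8 was level at 110, 106, 113 and 109 TPM. EMX2, a dorsal telencephalic factor, was low on day 8 but higher in both KO libraries, at 1.13, 0.606, 3.32 and 2.15 TPM (log2 difference 1, limma adjusted p = 0.666). Of 16 listed anterior forebrain genes 12 were tested and 0 were called on either day, with medians of -0.06 and 0.08.

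PAX3, a dorsal neural and neural crest factor, was the listed gene with the largest positive difference on day 8. Its levels were low, at 1.48 and 1.84 TPM in WT and 5.31 and 3.70 TPM in KO, without overlap (log2 difference 1.04, SE 0.28, interval 0.45 to 1.62). The limma adjusted p was 0.37, and the difference was not called. On day 4 the PAX3 libraries overlapped, at 3.75, 1.96, 4.02 and 2.79 TPM. For scale, PAX3 reached 166 and 139 TPM in WT and 176 and 179 TPM in KO under CT0.4 on day 8. ZIC1, another dorsal factor, was also higher in both KO libraries on day 8, at 49.3, 39.0, 53.6 and 57.6 TPM (0.33). ZIC2 overlapped at 139, 134, 180 and 129 TPM. ZIC4 was slightly lower in KO, at 11.9, 14.7, 11.1 and 11.4 TPM. Of 15 listed dorsal neural tube genes 8 were tested, and 0 were called.

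The close relatives of SOX1 showed no called difference in KO. SOX2, the pluripotency and progenitor factor, stood at 428, 412, 424 and 451 TPM on day 4, and at 395, 399, 391 and 403 TPM on day 8. SOX3 gave 19.3, 24.5, 18.8 and 22.8 TPM on day 4, then 15.4, 13.2, 13.2 and 16.6 TPM. SOX21, a SOXB2 repressor, gave 131, 124, 105 and 120 TPM, then 89.8, 87.6, 80.6 and 94.8 TPM. SOX2 and SOX3 mRNA were therefore within the spread of the libraries on both days. Progenitor filament genes were likewise level on day 8, with NES at 388, 373, 347 and 399 TPM and VIM at 695, 626, 680 and 700 TPM. All 16 neural progenitor genes were tested and none was called, with medians of -0.08 and 0.02.

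**Figure D2:**
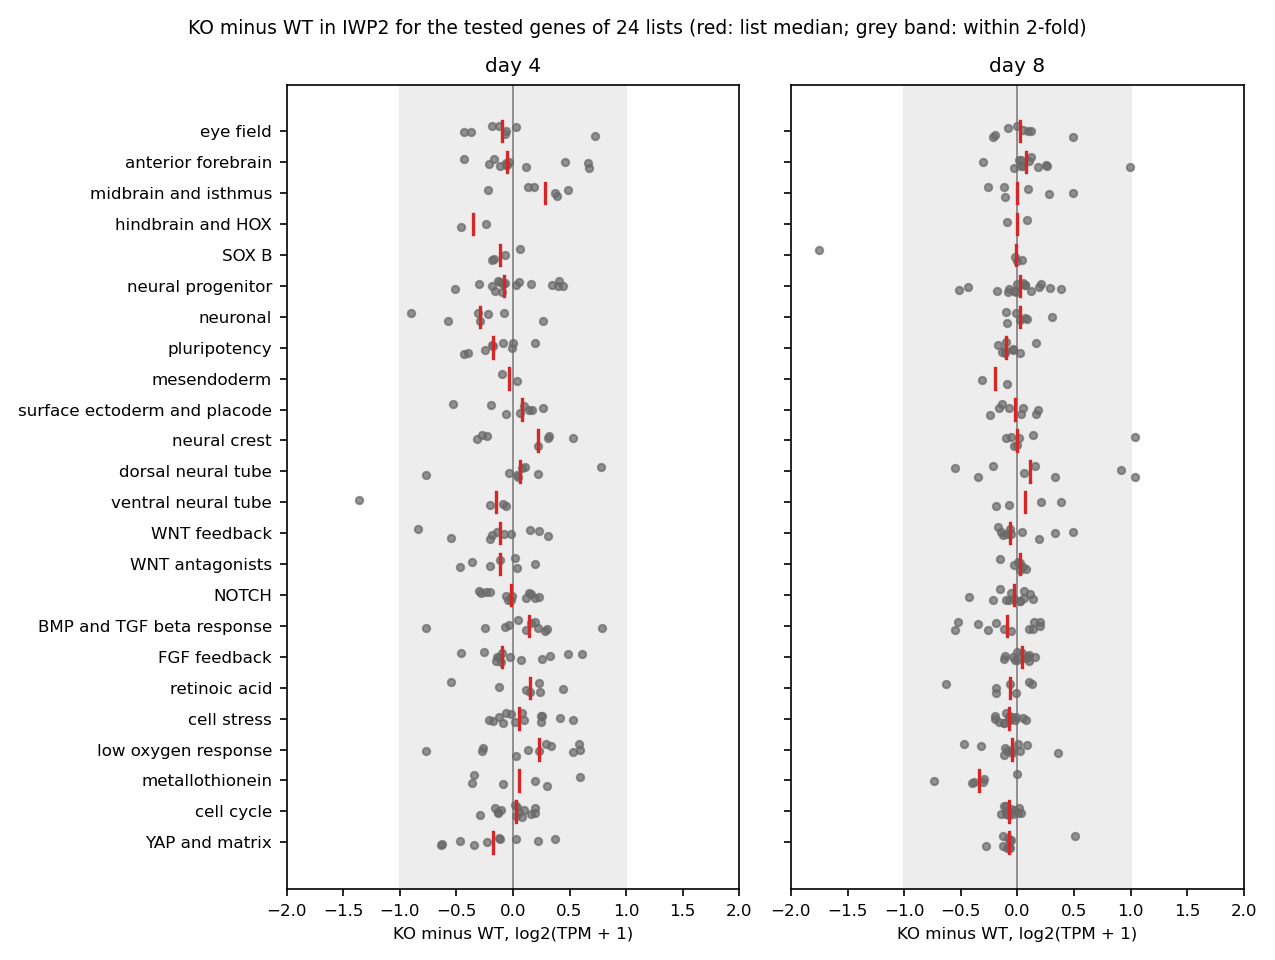
KO minus WT differences of log2(TPM + 1) for the tested members of 24 gene lists on day 4 and day 8; each point is a gene, the red line is the list's median and the grey band spans 1 unit either way. On day 8 SOX1 (-1.75) is the lowest point and PAX3 (1.04) the highest, and no listed gene was called on either day.

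No marker of another cell type was called between the genotypes. The neuronal genes TUBB3 and DCX, a tubulin and a microtubule-binding protein of young neurons, were at 229, 216, 217 and 234 TPM and at 23.1, 24.3, 24 and 26 TPM on day 8. The pluripotency gene POU5F1 was detected on day 4 in both genotypes, at 29.6, 39.7, 31.2 and 21.4 TPM. Of 17 listed pluripotency genes 9 were tested, whereas TDGF1, ZFP42 and UTF1 stayed below 1 TPM in all 8 libraries. POU5F1 was near 1 TPM in all 4 libraries on day 8, whereas LIN28A, an RNA-binding protein shared with early neural cells, stayed at 688, 682, 618 and 650 TPM. The simple epithelial keratin KRT8 was at 157, 150, 138 and 141 TPM on day 8, and the neural crest receptor NGFR at 25.7, 23.1, 18.6 and 27.8 TPM. Some markers of other lineages were at or near 0, and SOX17 was listed at 0 in all 8 libraries. NANOG and the brachyury gene T stayed below 1 TPM, and SOX10 reached at most 0.494 TPM. Other members of these lists were expressed. Of 12 listed neural crest genes 7 were tested, and the list summed to 103, 101, 96.4 and 109 TPM on day 8. Of 12 listed mesendoderm genes 2 were tested, and that list summed to 23.79, 27.99, 20.77 and 27.68 TPM on day 8. Of the hindbrain genes, HOXA2, HOXB1 and HOXB2 stayed below 1 TPM, and HOXB3 reached at most 2.04 TPM. Among 16 midbrain and isthmus genes EN1 and EN2 did not exceed 0.0498 TPM, but 6 were tested and the list summed to 184, 190, 241 and 216 TPM on day 4, then 289, 345, 460 and 293 TPM. FGF8, a secreted signal of the isthmus and of the anterior neural ridge, supplied much of that sum on day 8, at 143, 177, 245 and 153 TPM, with KO 26 alone high. None of the 6 was called, with medians of 0.28 and -0.01.

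No gene of the signalling lists was called on either day, though some did not overlap between genotypes. AXIN2 and LEF1, feedback targets of WNT, were at 9.64, 11.5, 14.3 and 12.9 TPM and at 25.3, 18.5, 16.8 and 25.7 TPM on day 8. The secreted WNT antagonists SFRP1 and FRZB were at 327, 351, 347 and 317 TPM and at 79.7, 85.3, 86.2 and 81.9 TPM. GLI1, a target of Hedgehog signalling, was lower in KO on day 4, at 9.13, 12.8, 1.87 and 6.43 TPM (log2 difference -1.36, limma adjusted p = 0.31), the lowest difference of any listed gene that day. PTCH1, another Hedgehog target, was slightly lower in both KO libraries, at 55.9, 63.4, 47.5 and 55.8 TPM (-0.21), with KO 48 just below WT 1. ID1, a BMP target, was higher in KO on day 4, at 7.40, 7.62, 13.1 and 14.4 TPM (log2 difference 0.79, limma adjusted p = 0.364), but overlapped on day 8 at 7.79, 5.93, 4.94 and 7.75 TPM. None of the WNT feedback, WNT antagonist, NOTCH, BMP, FGF, retinoic acid, stress, low oxygen, metallothionein or cell cycle genes was called. MKI67, a proliferation marker, read 68.6, 66.1, 64.3 and 72.4 TPM on day 8.

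The KO 26 library of day 4 stood apart from the other 3 in some genes of the cytoskeleton and matrix. TAGLN, an actin-binding protein, was at 63.7 TPM in KO 26 against 180, 169 and 196 TPM in WT 1, WT 2 and KO 48. CTGF and CYR61, targets of YAP, were at 3.56 and 5.99 TPM in KO 26 against 12 to 15.9 TPM and 12.5 to 19.6 TPM in the other 3 libraries. The summed level of the YAP and matrix list was 164 TPM in KO 26 and 312, 321 and 334 TPM in WT 1, WT 2 and KO 48. KO 48 was thus at the WT level, and the difference followed 1 library rather than the genotype. TAGLN alone made up much of the gap in that sum. The KO minus WT differences of the list's 10 tested members ran from -0.63 to 0.37 on day 4. CTGF was called on day 4 when KO 48 was left out (log2 difference -1.57, limma adjusted p = 0.00646), but not with both KO libraries (-0.63, limma adjusted p = 0.632). KO 26 was also the lowest of the 4 for TUBB3 on day 4, at 63.2 TPM against 111 to 127 TPM, and the highest for DDIT4, a stress gene, at 128 TPM against 35 to 51.4 TPM. On day 8 TAGLN was level again at 387, 333, 335 and 351 TPM.

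Across the 24 lists, 201 of 307 listed genes were tested, and 0 were called on day 4, on day 8 or for the line means of both days. At an unadjusted p under 0.05 there were 16, 7 and 8 of these genes (7.96%, 3.48% and 3.98%), below the 9.31%, 5.37% and 6.08% of all genes tested. KO and WT libraries did not overlap for 47 higher and 44 lower listed genes on day 4, where 37.2% of all genes tested (17.1% higher, 20.2% lower) did not overlap. On day 8 they did not overlap for 17 higher and 32 lower, where the share of all genes was 32.5% (16.4% higher, 16.1% lower). Differences of single listed genes ran from -1.36 (GLI1) to 0.79 (ID1) on day 4 and from -1.75 (SOX1) to 1.04 (PAX3) on day 8. Of the 131 listed genes with a mean of at least 10 TPM, 110 on day 4 and 122 on day 8 had a 95% interval within a 2-fold change. Over all genes of that level the share was 91.6% on day 4 and 93% on day 8 (9537 and 9682 of 10416), against 84% and 93.1% for the listed genes. HESX1, SP8, FGF8 and TUBB3 were among the listed genes whose day 4 interval reached past 2-fold. HESX1, LHX5 and ZIC1 were among the 9 on day 8, so a change of that size was not excluded for them. Without 1 of the names the all-gene numbers stayed at 8859 to 9122 and 9157 to 9249 genes.

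The 4 libraries of a day differed between genotypes about as much as within one. Pairs of libraries were compared over the 10416 genes with a mean of at least 10 TPM only. On day 4 the median absolute log2 difference over these genes was 0.129 between the WT libraries, 0.167 between the KO libraries and 0.146 to 0.192 across genotypes. On day 8 these were 0.116, 0.152 and 0.123 to 0.148. Of the 10416 genes, those at least 2-fold apart on day 4 numbered 161 between the WT libraries, 206 between the KO libraries and 177 to 222 across genotypes. On day 8 they numbered 125, 173 and 147 to 159. Genes of lower level were not part of these counts.

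Over all genes, 11 differences were called on day 4 (7 higher and 4 lower in KO) and 14 on day 8 (9 higher and 5 lower). These are the 0.0483% and 0.0615% given above, beside 2119 and 1223 genes at an unadjusted p under 0.05. No gene was called for the line means, beside 1384 at an unadjusted p under 0.05. The day 4 count was 18 without WT 1, 22 without WT 2, 24 without KO 26 and 22 without KO 48. The day 8 count was 9 without WT 1 and 15 to 21 without 1 of the other 3 names, and the line mean count was 1 without KO 26 and 2 without KO 48. Fitted on the 4 libraries of the day alone, neither day gave a call. Few called genes were abundant protein-coding genes: 4 of 11 were protein coding on day 4 and 2 of 14 on day 8, against 61.9% of all genes tested. Their median exon length was 364 and 257.5 bases, against 3293 bases, and 7 of 11 and 10 of 14 were listed at 0 in both libraries of 1 genotype.

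LAMB2, a laminin chain of the basement membrane, was an abundant gene called on day 8 (chosen after its values were seen). It read 84.9 and 82.6 TPM in WT and 144 and 121 TPM in KO, without overlap (log2 difference 0.65, SE 0.10, limma adjusted p = 0.0194). On day 4 LAMB2 was level, at 64.2, 67.4, 70.2 and 65 TPM, and the difference between days was not called (0.61, limma adjusted p = 0.197). Its call was lost without WT 1, WT 2 or KO 26 (limma adjusted p = 0.173, 0.157 and 0.210) and kept without KO 48. CLK1, a kinase of splicing factors, was called on day 4 (also chosen after its values were seen), at 59.3 and 63.7 TPM in WT and 102 and 100 TPM in KO (log2 difference 0.71, limma adjusted p = 0.0153). CLK1 showed no such difference on day 8 (-0.06). Its call was lost without WT 1, KO 26 or KO 48 (limma adjusted p = 0.111, 0.0984 and 0.0706). C11orf71 was higher in KO on day 4, at 2.89, 2.54, 7.97 and 5.55 TPM (log2 difference 1.04, limma adjusted p = 0.0335). This call was lost without WT 1, WT 2 or KO 26 (limma adjusted p = 0.115, 0.224 and 0.0957).

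ACTR6, an actin-related subunit of a chromatin remodeller, had KO differences of opposite sign on the 2 days. It was at 22.9, 22.8, 33.2 and 36.6 TPM on day 4 (log2 difference 0.59, limma adjusted p = 0.0335) and at 37.4, 39.2, 30.8 and 30 TPM on day 8. The KO effect on ACTR6 was lower on day 8 than on day 4 by 0.91 log2 units (limma interaction -0.91, adjusted p = 0.0428). CPT1B, a mitochondrial fatty acid importer, did the reverse, at 82.5, 79.9, 56.2 and 65.9 TPM on day 4, with day 8 levels of 49.7, 45.5, 67.7 and 67.5 TPM (interaction 0.91, adjusted p = 0.0428). The ACTR6 interaction was lost without WT 1, WT 2, KO 26 or KO 48 (limma adjusted p = 0.112, 0.165, 0.0753 and 0.193), as was that of CPT1B (0.142, 0.211, 0.206 and 0.0884). The day 4 call of ACTR6 was also lost without any 1 name (limma adjusted p = 0.183, 0.175, 0.0724 and 0.147). In all, the KO effect differed between days for 9 genes (0.0395%), 3 higher on day 8 (0.0132%) and 6 lower (0.0264%). That count was 3 without WT 2, 2 without KO 48 and 9 without WT 1 or without KO 26. No listed gene was among the 9.

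Several calls were microRNA precursor genes, which are shorter than the fragments of a usual library and read at or near 0 TPM in poly(A) RNA. Their rows count reads over the hairpin gene and do not measure the mature microRNA. The mature sequences are given from RefSeq (GRCh38.p14), 5′ to 3′, with the seed, bases 2 to 8, in capitals, for 3 of the called precursors, to show the target-recognising letters they would carry.
hsa-miR-135b-5p: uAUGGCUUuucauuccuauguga
hsa-miR-135b-3p: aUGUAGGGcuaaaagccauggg
hsa-miR-555: aGGGUAAGcugaaccucugau
hsa-miR-548b-5p: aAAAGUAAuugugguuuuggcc
hsa-miR-548b-3p: cAAGAACCucaguugcuuuugu
No seed was shared among these 5 arms. MIR135B (chr1:205448302-205448398, minus strand, hg38) was listed at 6.67 and 10.8 TPM in WT and at 0 in both KO libraries on day 4 (limma adjusted p = 0.038). On day 8 MIR135B was at 2.29 and 0 TPM in WT and 2.21 and 0 TPM in KO, so the day 4 separation was not seen again. MIR555 (chr1:155346350-155346445, minus strand) was listed at 0 in WT and at 2.11 and 4.63 TPM in KO on day 4 (limma adjusted p = 0.000878). MIR548B (chr6:119069047-119069143, minus strand) was at 2.29 and 2.27 TPM in WT and at 0 in KO on day 8 (limma adjusted p = 0.00369). The noncoding genes GNAS-AS1_2 on day 4 (3.46 and 4.76 TPM in KO, limma adjusted p = 2.7e-05) and TAB3-AS2 on day 8 (3.66 and 1.61 TPM in KO, limma adjusted p = 0.0111) were likewise listed at 0 in both WT libraries. LINC01752 was listed at 0 in WT and at 1.15 TPM in both KO libraries on day 8 (limma adjusted p = 0.0438). The LINC01752 call was lost without WT 1, WT 2, KO 26 or KO 48 (limma adjusted p = 0.173, 0.109, 0.104 and 0.0951). That of MIR135B was lost without WT 2, KO 26 or KO 48 (0.115, 0.0724 and 0.0661), and that of TAB3-AS2 without WT 1, WT 2 or KO 26 (0.133, 0.0661 and 0.0941).

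The 2 days shared few differences. A gene agreed between days when its absolute log2 difference was at least 1 on both days, in the same direction, without overlap of KO and WT libraries on either day. This held for 36 genes higher in KO (0.158%) and 34 lower (0.149%). Differences of the same size in opposite directions numbered 64 (0.281%), close to the 70 in the same direction (0.307%). Non-overlap alone held on both days for 550 genes higher in KO (2.42%), 620 lower (2.72%) and 1639 in opposite directions (7.2%). Among listed genes it held for BNIP3 and LHX5 (higher), for ADM, DNMT3B, ID3 and MT2A (lower) and in opposite directions for 17. DNMT3B, a DNA methyltransferase of pluripotent cells, is an example with a small difference. It was at 189, 191, 162 and 158 TPM on day 4, then 80, 79.8, 72.6 and 72.5 TPM by day 8. Without 1 of the names 231 to 252 genes met the agreement rule. In that setting 1 library stood for its genotype, and the cause of the larger counts was not tested.

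**Figure D3:**
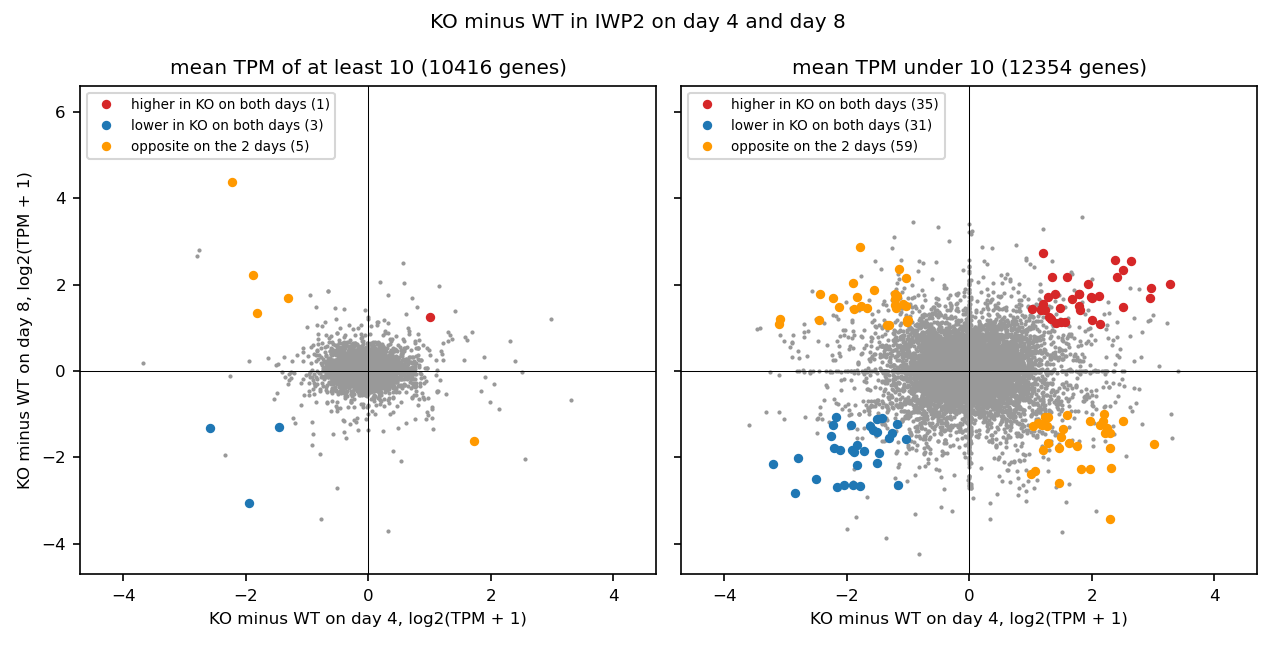
KO minus WT differences of log2(TPM + 1) on day 4 (x axis) and day 8 (y axis), for 10416 genes with a mean of at least 10 TPM (left) and 12354 genes below it (right); coloured points met the size and non-overlap rule on both days. At the higher level 1 gene was higher on both days, 3 were lower and 5 had opposite signs.

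PYROXD2, an oxidoreductase gene, was the gene above 10 TPM that was higher on both days (chosen after its values were seen). It read 7.66, 3.05, 10.3 and 11.6 TPM on day 4, with day 8 levels of 12.9, 8.18, 24.4 and 27.1 TPM (log2 differences 1.01 and 1.24, limma adjusted p = 0.509 and 0.722). SNORA71A, a small nucleolar RNA gene, was among the lower ones, at 20.3, 15.4, 4.93 and 6.84 TPM on day 4, then 19.6, 16, 3.39 and 12.2 TPM by day 8. CCDC169, a coiled-coil gene, was lower too, at 8.47, 6.44, 0.771 and 3.88 TPM on day 4, with day 8 levels of 4.68, 5.79, 0.655 and 4.07 TPM. RMST_3, an annotated segment of the noncoding RNA RMST, was listed at 0 in all 4 WT libraries and at 5.6, 3.98, 1.57 and 2.05 TPM in KO 26 and KO 48 on day 4 and then on day 8.

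SMIM11A and SMIM11B looked like opposite changes of a gene and its copy. SMIM11A (chr21:34375480-34407866) was lower in KO, at 8.90, 9.04, 2.45 and 0.999 TPM on day 4, then 10.5, 12.9, 4.09 and 4.65 TPM by day 8. SMIM11B (chr21:7744962-7777853) was higher, at 2.77, 1.81, 9.42 and 11.5 TPM and at 3.4, 2.73, 8.8 and 11 TPM. The transcripts of the copies share 93.2% of the 31-base words of SMIM11A and 90.5% of those of SMIM11B, so reads of one can be assigned to the other. Their sum was 11.7, 10.9, 11.9 and 12.5 TPM on day 4, with day 8 levels of 13.9, 15.7, 12.9 and 15.6 TPM. The values of either copy alone are therefore uncertain. The sums differed far less than either copy, with both KO libraries slightly above WT on day 4 and overlap on day 8.

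**Figure D4:**
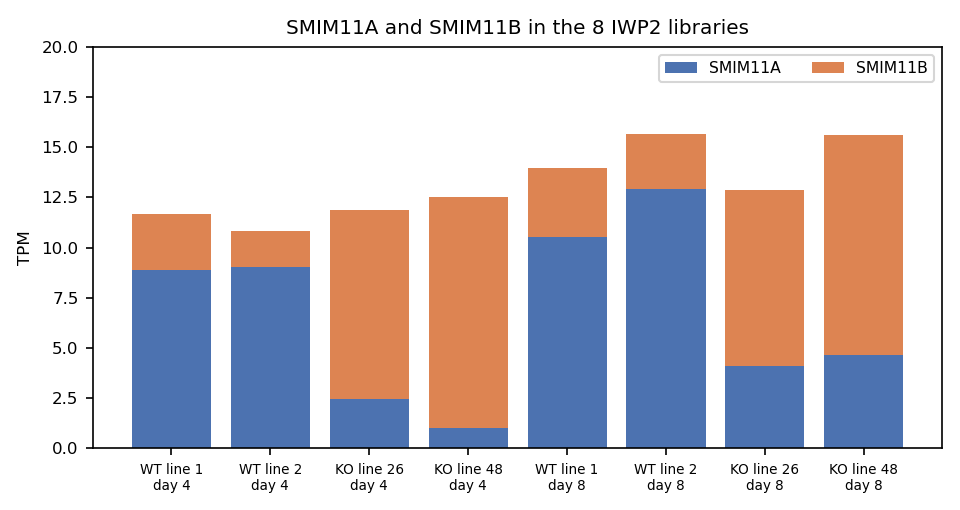
Stacked TPM of SMIM11A and SMIM11B in each of the 8 IWP2 libraries. The total bar heights lie between 10.9 and 15.7 TPM in all libraries, while the split between the copies differs between WT and KO.

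Genes beside SOX1 on chromosome 13 were read because SOX1 is the knocked out gene (chosen after their values were seen). The labels do not describe the lesion at that locus, and a link of it to these genes was not tested. SOX1 lies at chr13:112067647-112070488 on the plus strand, and the noncoding genes LINC00404 (chr13:112106095-112106882, minus strand) and LINC00403 (chr13:112107119-112108015, plus strand) follow it. On day 8 LINC00403 was at 7.98 and 6.68 TPM in WT and 16.7 and 18.7 TPM in KO (log2 difference 1.17, limma adjusted p = 0.845). LINC00404 was at 29 and 37.7 TPM in WT and 55 and 44.3 TPM in KO (log2 difference 0.56). Both rows were higher in KO without overlap, opposite to SOX1, and neither was called. On day 4 LINC00403 overlapped at 4.07, 1.38, 2.41 and 4.37 TPM. The sources used here do not state whether the quantification used strand.

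The day 8 KO effect under IWP2 was then set against that under CT1.0 by an interaction term, with each label's own WT libraries as controls. It differed for 932 genes (4.09%), 699 with a more positive difference under IWP2 (3.07%) and 233 with a more negative one (1.02%). Under scaling by median ratios the split was 364 and 344. Of the 201 listed genes 40 were called, 19 more positive and 21 more negative under IWP2. Outside SOX1 and PAX3, the IWP2 differences of these genes ran only from -0.55 (BMP4) to 0.33 (ZIC1). OTX2 under CT1.0 was at 6.19 and 5.99 TPM in WT and 82.6 and 50.7 TPM in KO, whereas under IWP2 it was above 200 TPM in all 4 libraries (interaction -3.16, limma adjusted p = 0.00505). FEZF2, a forebrain repressor related to FEZF1, went from 16.3 and 23.4 TPM to 0.614 and 1.67 TPM under CT1.0, but was at 6.82, 6.77, 6.12 and 8.88 TPM under IWP2 (interaction 3.41).

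Dorsal genes had the highest share of calls of any list with at least 8 tested members, with 6 of 8 tested members more negative under IWP2. Where a name is left out below, only its IWP2 libraries were removed, and its CT1.0 libraries stayed in. The 6 became 3 without WT 1, without WT 2 or without KO 48, and ZIC1 and ZIC4 were among the 3 each time. ZIC1 under CT1.0 was at 5.23 and 0.728 TPM in WT and 74.4 and 51.3 TPM in KO, and the IWP2 values given above lay between 39.0 and 57.6 TPM in both genotypes (interaction -3.93, limma adjusted p = 0.00382). ZIC4 under CT1.0 was at 0.588 and 0.250 TPM in WT and 21.9 and 11.8 TPM in KO (interaction -3.82). LMX1A, a roof plate gene, was at 0.827 and 0.447 TPM in WT and 21.3 and 8.35 TPM in KO under CT1.0, and at or below 0.208 TPM in all 4 IWP2 libraries (interaction -3.27). BMP4, a dorsal signal, was at 0.787 and 0.466 TPM in WT and 14.5 and 6.17 TPM in KO under CT1.0 and at 5.14, 2.96, 3.29 and 1.63 TPM under IWP2 (interaction -3.25, lost without WT 1 at limma adjusted p = 0.0572). PAX3 was at 11.9 and 6.67 TPM in WT and 62.6 and 49.2 TPM in KO under CT1.0 (interaction -1.47, limma adjusted p = 0.046), a call lost without WT 1, WT 2 or KO 48 (0.0802, 0.14 and 0.17). The neuronal genes TUBB3, DCX and STMN2 were lower in KO under CT1.0 and level or overlapping under IWP2, with interactions of 1.89, 1.28 and 1.66. The calls of DCX and STMN2 were lost without any 1 of the 4 names (limma adjusted p = 0.0812 to 0.153 and 0.0578 to 0.145), and that of TUBB3 without WT 1, WT 2 or KO 48 (0.0836 to 0.122). NES under CT1.0 was at 1025 and 893 TPM in WT and 214 and 410 TPM in KO (interaction 1.65), with the call lost without WT 1, WT 2 or KO 48 (limma adjusted p = 0.0974 to 0.133).

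**Figure D5:**
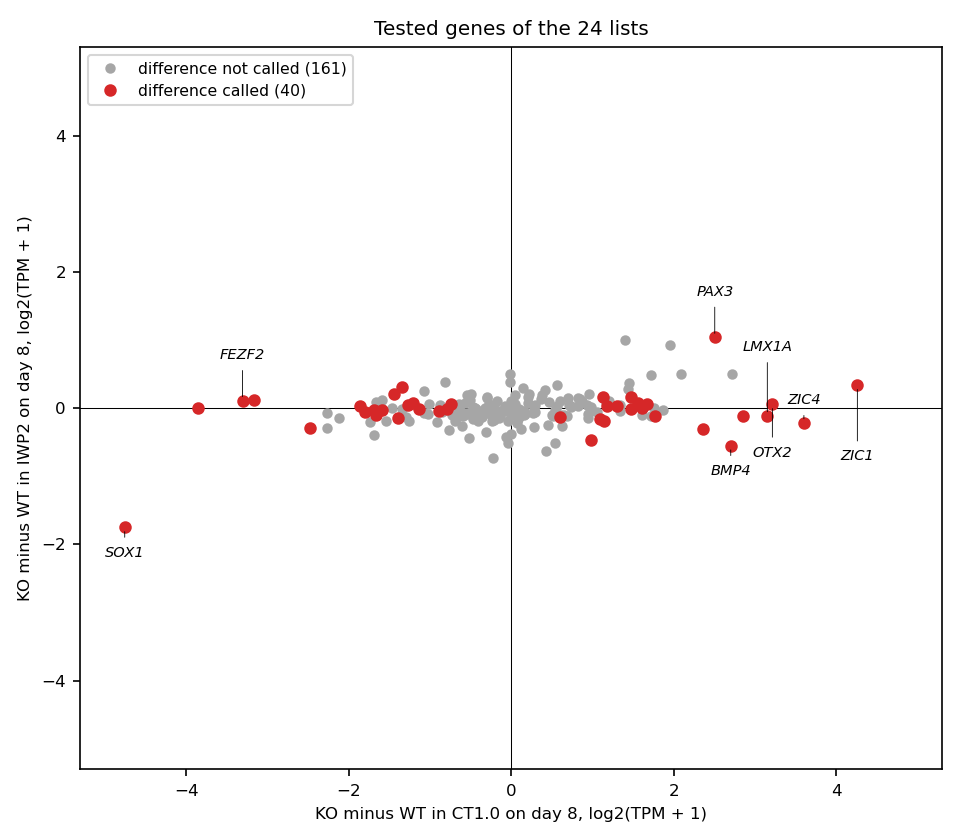
KO minus WT differences of log2(TPM + 1) on day 8 for 201 listed genes, under CT1.0 (x axis) and IWP2 (y axis); red points are the 40 genes whose difference between the labels was called, and 8 of them are named. The points spread along the x axis, from -4.76 for SOX1 to 4.26 for ZIC1, and the red points other than SOX1 and PAX3 lie between -0.55 and 0.33 on the y axis.

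No eye field, hindbrain, mesendoderm, ventral, WNT feedback, NOTCH or stress gene was called for this difference. The 40 calls depended on which libraries entered, though only IWP2 libraries were left out. The CT1.0 libraries of each name stayed in every fit, so dependence on single CT1.0 libraries was not tested. Without WT 1 there were 6 more positive and 12 more negative (189 genes in all), without WT 2 there were 5 and 11 (143 in all), without KO 48 there were 8 and 13 (205 in all), and without KO 26 there were 19 and 22 (776 in all). Fitted on the libraries of the contrast alone, no gene was called. Against CT0.4 on day 8 the KO effect differed for 1 gene (0.00439%), beside 1469 at an unadjusted p under 0.05, and no listed gene. That gene was RP11-490K7.4, a pseudogene at 4.48, 6.41, 12.7 and 9.85 TPM under IWP2 (interaction 1.65, limma adjusted p = 0.0465, chosen after its values were seen).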

How the data were processed

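Poly(A) RNA was sequenced as paired-end reads on one of 2 Illumina instruments, per the labels' protocols, which do not assign an instrument to a library. The authors deposited 1 table of TPM values. CASAVA 1.7, Salmon 0.8.2 and hg38 are named in the submitters' processing notes, and no strand setting is stated there. IDs were matched to GENCODE release 29 for coordinates and lengths (57881 of 58219), and 275 names are shared by several IDs.

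Values were tested as log2(TPM + 1) with limma 3.58.1 in R 4.3.3. One mean for each of 14 groups was fitted over all 28 libraries (14 residual degrees of freedom), with trended variances and Benjamini-Hochberg adjustment over 22770 genes. Statements over both days used 1 mean per line. An exact permutation test of 2 against 2 cannot go below p = 0.333. A line gives a library on each day, but KO and WT lines share no numbers, so no pairing entered the within-day comparisons. The correlation of line differences between days was -0.0378 in WT and 0.120 in KO. The procedure was tested on simulated data.

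Genes named are the 6 markers, called genes of at least 1 log2 unit without overlap, the strongest agreeing genes, up to 5 members of each of 24 lists and the extremes of each interaction. Exceptions are marked where they were chosen after their values were seen, and further list members are given as examples. The members and the lists were chosen with earlier results of these data known. Alternatives covered the pseudocount, the filter, scaling, variance model, libraries fitted, line block and each name left out. A name was left out among the IWP2 libraries only. The 2-fold intervals and the protein-coding subset were added after seeing the data. Some genes are not reported here.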

Additional observations from a re-analysis of the deposited data

Results flagged for a closer look

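Tests of a difference between KO effects singled out 3 comparisons. The KO effect under IWP2 differed between day 4 and day 8 for 9 genes, between IWP2 and CT1.0 on day 8 for 932 genes and between IWP2 and CT0.4 on day 8 for 1 gene. Between days the named genes were MIR1207 (2.41) and CPT1B (0.91), with a more positive difference on day 8, and GNAS-AS1_2 (-2.34), MIR555 (-2.07) and ACTR6 (-0.91), with a more negative one. MIR1207, GNAS-AS1_2 and MIR555 were each listed at 0 in both WT libraries of the day on which they were called, so these fitted values depend on the pseudocount.

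Between IWP2 and CT1.0 the most positive differences were MIR3122 (4.40), MIR3174 (4.06), MIR3662 (4.02) and NPIPA5 (3.99). The first 3 were listed at 0 in both WT libraries under IWP2. NPIPA5 was listed at 0 in both KO libraries under CT1.0 and belongs to a family of near-identical copies. The most negative were MT-TA (-4.97), SNORD15A (-4.10), SNORD117 (-4.09) and ZIC1 (-3.93). MT-TA and SNORD15A were listed at 0 in both KO libraries under IWP2 and in both WT libraries under CT1.0. ZIC1 is the protein-coding gene of these with levels above 30 TPM in several libraries.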

How the results depend on the processing

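With a pseudocount of 0.1 the calls numbered 9 on day 8, 1 for line means, 3 between days and 4 against CT0.4, and 179 genes agreed between days. Without a filter on low values they numbered 43 on day 4, 53 on day 8, 45 for line means, 50 between days and 91 against CT0.4. A filter over all 28 libraries gave 15 between days and 41 against CT0.4, and median-ratio scaling gave 9 on day 8, 1 between days and 0 against CT0.4. With only the libraries compared, day 4, day 8, the difference between days and those against CT1.0 and CT0.4 all gave 0. Without a variance trend but with robust variances the counts were 20, 23, 21, 21, 562 and 15 for day 4, day 8, line means, days, CT1.0 and CT0.4. Protein-coding genes alone gave 3 on day 4, 2 on day 8, 0 between days, 1410 against CT1.0, 5 against CT0.4 and 11 that agreed. Agreement at 0.5 log2 units held for 223 genes. Leaving out 1 name gave 18 to 24 on day 4, 9 to 21 on day 8, 0 to 2 for line means, 2 to 9 between days, 143 to 776 against CT1.0, 2 to 9 against CT0.4 and 231 to 252 that agreed. The cause of these shifts was not tested.

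The line as a block (replicate block, consensus correlation 0.00402) gave 11, 14, 9, 944 and 1 calls for day 4, day 8, days, CT1.0 and CT0.4, and changed none of these by over 1.5 times. No block can be fitted to line means. Of 10472 recomputed values of named and listed genes, 10183 stayed on the same side of the threshold, 257 lost a call, 32 gained one and 0 reversed a call. A change of direction in a value called in neither fit was not counted. TPM keeps no depth, so low values carry no counting error here.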
